A study of Mus musculus with 30 samples.

Results

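The genes followed here are 36 neural progenitor and immature neuron genes, taken as a list of names and looked up among the 19737 genes of the deposited table, where all 36 were found. They comprise 4 genes of neural stem and progenitor cells, 9 neurogenic transcription factors, 4 DLX factors of the GABAergic lineage, 4 factors of cortical projection neuron identity, 2 factors of the cerebellar granule lineage, 10 genes of the immature neuron cytoskeleton and growth cone, and 3 surface or secreted proteins of young neurons. RNA was sequenced from whole brains of male C57BL/6N mice in 6 groups of 5 libraries. P10-WT and P10-HT were wild-type and Arid1b+/- pups at postnatal day 10, which received no treatment. The groups WT-Veh, HT-Veh, WT-Flx and HT-Flx were mice of these genotypes at postnatal day 120. Their dams drank 0.2% saccharin water, alone (Veh) or with 0.1 mg/ml of fluoxetine (Flx), from postnatal day 3 to 21, so that the pups were exposed through milk. Fluoxetine is a selective serotonin reuptake inhibitor. Arid1b encodes a DNA-binding subunit of the BAF (mammalian SWI/SNF) chromatin remodeling complex, and the heterozygous germline allele carries a truncating lesion in exon 5, so that no cell type is targeted. The ages were also separate sets of libraries, and the dams of the older set alone had saccharin, and these cannot be told apart from age.

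In the developing brain, neural stem cells (marked by Nes, Sox2, Hes5 and Pax6) give rise to committed precursors that switch on basic helix-loop-helix factors such as Neurog2 and Neurod1, and the newborn neurons then build a motile cytoskeleton of doublecortin, neuronal tubulins and growth cone proteins. In young pups the cerebellar external granule layer, the olfactory bulb and the dentate gyrus are main places where neurons are still added. In the adult mouse brain, neurogenesis is largely limited to the subventricular zone and the dentate gyrus. Some of the same factors, such as Sox2 in astrocytes or Tbr1 in deep layer neurons, stay on in mature cells.

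The values are normalized counts, counts per gene that the authors divided by a size factor for each library, and read depth is unknown. Their sums ranged from 31578614 to 41801037 per library. Arid1b itself served as a check of the labels. It ranged from 3164 to 3309 in P10-WT and from 2162 to 2334 in P10-HT, with no overlap, but the library labelled HT-Veh replicate 2 had 3361 and the library labelled WT-Veh replicate 2 had 2320.4. Both were kept under their labels, except in the adult genotype comparison under vehicle and the test of genotype by age, which leave them out. Results that change with or without them are given both ways. A gene counts as called when its Benjamini-Hochberg adjusted p, from limma on log2(value + 1) over all genes tested, is below 0.05.

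The promoters of 4 members are shown because they span the range of the difference between the ages in wild type described below: Nhlh1 and Draxin had the largest differences with a fold, Neurod2 the smallest called one and Sox2 none that was called. The sequences are the 250 bases before the RefSeq start site (GRCm38, 5′ to 3′ on the strand of the gene), and 27 of the 36 members matched the RefSeq promoter table. Capitals mark E-boxes, sites that basic helix-loop-helix factors can bind, searched on both strands as CAGATG with its reverse complement CATCTG, and as CAGCTG, which is its own reverse complement. Nhlh1 lies at chr1:172057597-172057846 (minus strand), Draxin at chr4:148130699-148130948 (minus), Neurod2 at chr11:98329646-98329895 (minus) and Sox2 at chr3:34649745-34649994 (plus).
Nhlh1: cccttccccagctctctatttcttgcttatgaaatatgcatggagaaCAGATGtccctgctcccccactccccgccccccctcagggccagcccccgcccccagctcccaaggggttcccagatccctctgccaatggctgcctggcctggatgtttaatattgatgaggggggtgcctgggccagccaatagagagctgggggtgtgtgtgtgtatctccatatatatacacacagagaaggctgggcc
Draxin: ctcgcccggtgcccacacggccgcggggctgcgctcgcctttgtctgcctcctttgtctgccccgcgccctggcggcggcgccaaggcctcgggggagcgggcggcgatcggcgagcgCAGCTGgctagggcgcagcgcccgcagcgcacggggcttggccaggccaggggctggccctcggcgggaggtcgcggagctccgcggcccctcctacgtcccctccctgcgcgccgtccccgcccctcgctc
Neurod2: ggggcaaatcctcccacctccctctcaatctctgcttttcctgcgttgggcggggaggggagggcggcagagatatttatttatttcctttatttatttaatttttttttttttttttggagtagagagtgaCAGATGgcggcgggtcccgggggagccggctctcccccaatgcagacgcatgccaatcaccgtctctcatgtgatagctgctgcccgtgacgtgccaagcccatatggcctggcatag
Sox2: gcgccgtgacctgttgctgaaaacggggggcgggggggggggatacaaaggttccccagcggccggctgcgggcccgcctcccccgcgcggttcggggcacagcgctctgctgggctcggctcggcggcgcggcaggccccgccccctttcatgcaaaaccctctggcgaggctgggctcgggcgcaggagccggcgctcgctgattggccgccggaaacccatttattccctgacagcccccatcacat
The first form was in the window of 3 of the 27 matched members (Neurod2, Nhlh1 and Nhlh2) and in 14.4% of all 32851 promoters, and the second in 4 (Barhl1, Draxin, Sox11 and Sox4) and in 13% of all. The Nhlh1 window held 2 CpG dinucleotides, that of Draxin 36, that of Neurod2 11 and that of Sox2 27, beside a median of 6 over all promoters. Nhlh1 and Draxin, with nearly equal differences between the ages, were thus far apart in CpG content. The Sox2 window held neither form of the E-box.

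Between postnatal days 10 and 120 most of the members fell, among them all of the neurogenic factors, cytoskeletal genes and surface or secreted proteins. In wild type, 31 of 36 members were called lower in WT-Veh than in P10-WT and 0 were called higher, beside 29.4% of all 17927 tested genes called lower and 28.9% called higher. In Arid1b+/- mice, 33 of 36 were called lower and 0 higher, beside 25.3% and 25.8% of 17989 tested genes. Without HT-Veh replicate 2 the 33 became 31 (Neurod6 and Bcl11b were lost), and without WT-Veh replicate 2 the 31 of wild type stayed 31. With GC content and length corrected both counts were 32, with Hes5 gained in both genotypes and Neurod6 and Bcl11a lost in Arid1b+/-. The median difference over the members was -1.40 (log2) in wild type and -1.29 in Arid1b+/-, beside -0.013 and -0.019 over all tested genes. In whole-brain RNA, fewer cells of a type and less RNA per cell cannot be told apart.

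All 5 WT-Veh libraries were below all 5 P10-WT libraries for 27 members, beside 23% of tested genes. In wild type 6 members kept under 10% of their P10 mean, 16 kept 10% to 50% and 14 kept more. The same 31 members were called in both genotypes, which share no library. Over 35 members (Atoh1 left out) the differences in the 2 genotypes had a Pearson r of 0.989, a description over genes that share their libraries within each genotype. With library totals made equal, the split of called genes moved from 5277 lower and 5174 higher to 6488 and 4197 in wild type, and from 4550 and 4634 to 5887 and 3502 in Arid1b+/-, with the median gene at -0.12 and -0.18, and the members called lower stayed at 31 and 33.

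**Figure D1:**
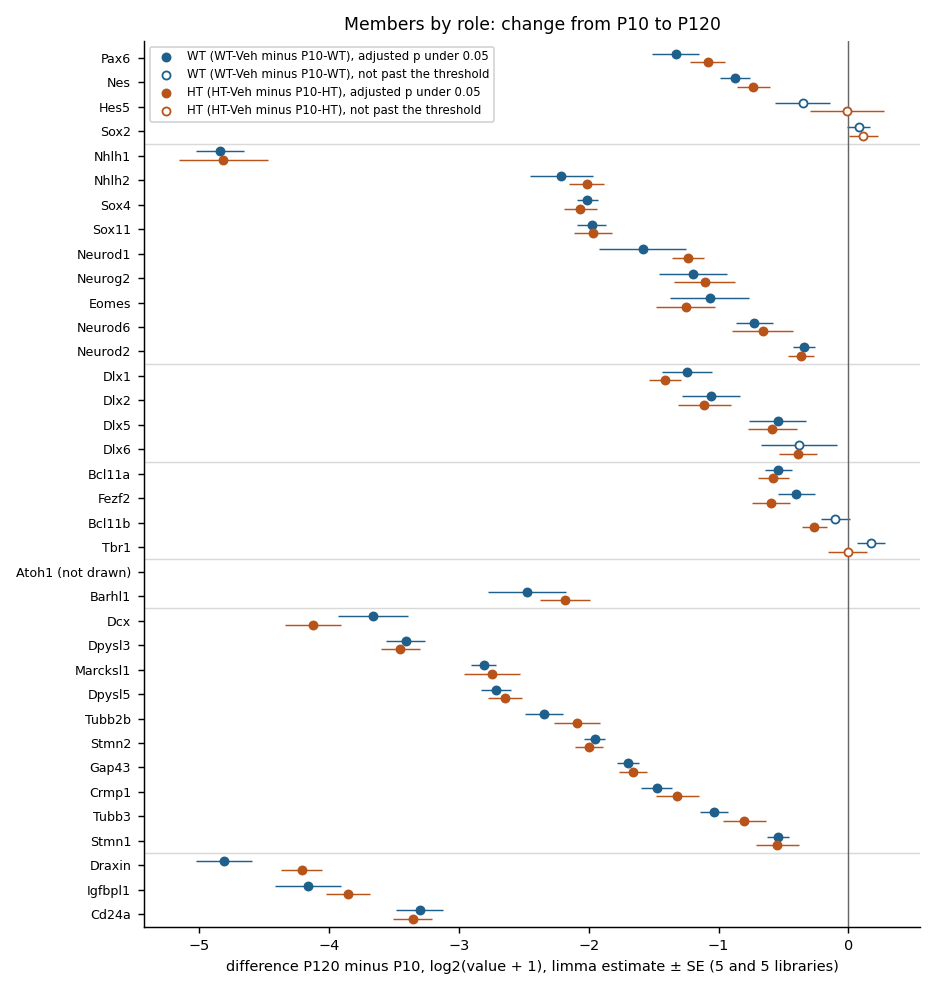
Difference between postnatal day 120 and day 10 for 35 members, in log2(value + 1), as limma estimates with standard errors from 5 and 5 libraries, in wild type (blue) and Arid1b+/- (orange), grouped by role and with filled points for called differences. The estimates run from -4.84 for Nhlh1 to 0.17 for Tbr1 in wild type, and Atoh1 is not drawn because it is listed at 0 in nearly all adult libraries.

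The neurogenic transcription factors all fell in both genotypes, 9 of 9, with wild-type differences from -4.84 (Nhlh1) to -0.34 (Neurod2). In Arid1b+/- 8 of 9 were called with GC content and length corrected and 8 of 9 without HT-Veh replicate 2, and the call lost was each time Neurod6 (-0.66, then -0.24 and -0.46). Nhlh1, a basic helix-loop-helix factor of newly postmitotic neurons, had 374, 283, 345, 335 and 254 normalized counts in the P10-WT libraries and 14.4, 10.4, 9.77, 9.59 and 7.10 in the WT-Veh libraries. The groups were far apart in every library, and the older brains held 3.22% of the younger mean (-4.84 ± 0.19, adjusted p = 1.19e-09, as log2 difference ± SE by limma). In Arid1b+/- the difference was -4.81 ± 0.34, adjusted p = 2.92e-07. The other means were 253 ± 35.5 (P10-HT), 9.36 ± 6.31 (HT-Veh), 11.0 ± 4.24 (WT-Flx) and 11.5 ± 3.01 (HT-Flx) (± SD, n = 5, as for all group means here), so both fluoxetine groups were as low as the vehicle groups.

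Neurod1, a factor of granule neuron and dentate neuron differentiation, had 3818, 3991, 4089.6, 3853 and 4111 in P10-WT and 554, 779, 2022, 2107 and 2219.8 in WT-Veh. No adult library reached the pups, but the adult libraries were spread widely (-1.58 ± 0.34, adjusted p = 0.00127). In Arid1b+/- the difference was -1.24 ± 0.12, adjusted p = 4.65e-06, and the other means were 3526 ± 318 (P10-HT), 1505 ± 219 (HT-Veh), 1285 ± 937 (WT-Flx) and 1272 ± 426 (HT-Flx). Neurog2, the proneural factor of dorsal progenitors, was the lowest of the neurogenic factors at P10, with 37.0 ± 4.66 in P10-WT, 16.5 ± 6.44 in WT-Veh, 32.3 ± 6.96 (P10-HT), 14.3 ± 2.61 (HT-Veh), 14.9 ± 4.72 (WT-Flx) and 14.7 ± 4.52 (HT-Flx). It fell by 1.19 on the log2 scale in wild type (adjusted p = 0.00163) and by 1.11 in Arid1b+/- (adjusted p = 0.00167).

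Neurod2, which cortical neurons keep into adulthood, had the smallest called fall in wild type, from 3145 ± 201 to 2487 ± 299 (-0.34 ± 0.084, adjusted p = 0.00325). The highest WT-Veh library (2911) just passed the lowest P10-WT library (2908). In Arid1b+/- the difference was -0.37 ± 0.10, adjusted p = 0.00869, and the other means were 3329 ± 200.2 (P10-HT), 2588 ± 253 (HT-Veh), 2051 ± 119 (WT-Flx) and 2831 ± 144 (HT-Flx). Eomes, a factor of intermediate progenitors and of unipolar brush cells, went from 410.3 ± 45.3 to 221 ± 126 (-1.07 ± 0.30, adjusted p = 0.00873), with 421 ± 25.7 (P10-HT), 188 ± 76.4 (HT-Veh), 172 ± 89.0 (WT-Flx) and 169 ± 67.4 (HT-Flx). The other neurogenic factors were Nhlh2 (-2.21), the SoxC factors of neuronal differentiation Sox4 (-2.01) and Sox11 (-1.98), and Neurod6 (-0.72), a factor of projection neurons. Of the Sox4 exon bases, 54.6% overlap a gene on the opposite strand, whose reads cannot be told apart from those of Sox4 without strand.

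All 10 members of the immature neuron cytoskeleton and growth cone fell in both genotypes, with wild-type differences from -3.66 (Dcx) to -0.54 (Stmn1) and a median of -2.15. By normalized counts per kilobase of exon they held the 5 highest levels of the list: in P10-WT Tubb3 averaged 17529, Tubb2b 14209, Gap43 11993, Marcksl1 10992 and Stmn1 10575. The length is the union of all exons, far above the mean transcript for some members (Stmn2 5602 against 1609 bases, Crmp1 7046 against 1296). The order therefore depends on the length used. Dcx encodes doublecortin, the microtubule-binding protein of migrating neurons. It had 8547, 8536, 8670.4, 10583 and 6735 in P10-WT and 1285, 917, 379.9, 460.0 and 677 in WT-Veh. The ages were apart in every library (-3.66 ± 0.27, adjusted p = 1.72e-07), and likewise in Arid1b+/- (-4.12 ± 0.21, adjusted p = 3.66e-08), where the means went from 8792 ± 883 to 533 ± 201.

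Tubb3, the neuron-specific beta tubulin, had 32571, 33702, 32215, 38650.2 and 26580.0 in P10-WT and 13328, 16976, 18773, 16245 and 14682 in WT-Veh. These did not overlap either, but the older brains kept 48.9% of the younger mean (-1.03 ± 0.11, adjusted p = 3.48e-06), and 57.9% in Arid1b+/- (-0.80 ± 0.17, adjusted p = 0.00159). Smaller still was the fall of Stmn1, a stathmin that destabilizes microtubules and is found in many cell types, which kept 68.6%. Stmn2, the neuronal stathmin of growing axons, kept 25.7%, the growth cone phosphoprotein Gap43 30.7%, and the collapsin response mediator Crmp1 35.8%. Its relatives Dpysl3 and Dpysl5 kept 9.14% and 15.0%, and the actin regulator Marcksl1 14.3%. Tubb2b kept 19.3%, with reads that may be shared with its near-identical paralog Tubb2a, so its level is uncertain.

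The 3 surface or secreted proteins of young neurons fell in both genotypes. Draxin, a secreted repellent of commissural axons, had 743, 817, 877, 919 and 639 in P10-WT and 35.8, 45.1, 18.3, 20.9 and 24.4 in WT-Veh. No library of one age reached the other (-4.81 ± 0.22, adjusted p = 3.56e-09, and -4.21 ± 0.16, adjusted p = 3.19e-09 in Arid1b+/-). The other means were 633 ± 108 (P10-HT), 33.2 ± 5.70 (HT-Veh), 31.2 ± 4.76 (WT-Flx) and 41.8 ± 8.73 (HT-Flx). Igfbpl1, a secreted protein related to the insulin-like growth factor binding proteins, had 1150.4, 1159, 1296, 1335 and 867 in P10-WT and 85.6, 121, 45.4, 42.0 and 51.3 in WT-Veh, again without overlap (-4.16 ± 0.26, adjusted p = 3.60e-08, and -3.85 ± 0.17, adjusted p = 1.03e-08 in Arid1b+/-). Cd24a, a small surface glycoprotein of immature neurons, went from 3072 ± 601 to 315 ± 87.6 (-3.30 ± 0.18, adjusted p = 1.44e-08), with 3236 ± 401 (P10-HT), 318 ± 62.2 (HT-Veh), 352 ± 95.5 (WT-Flx) and 292 ± 124 (HT-Flx).

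**Figure D2:**
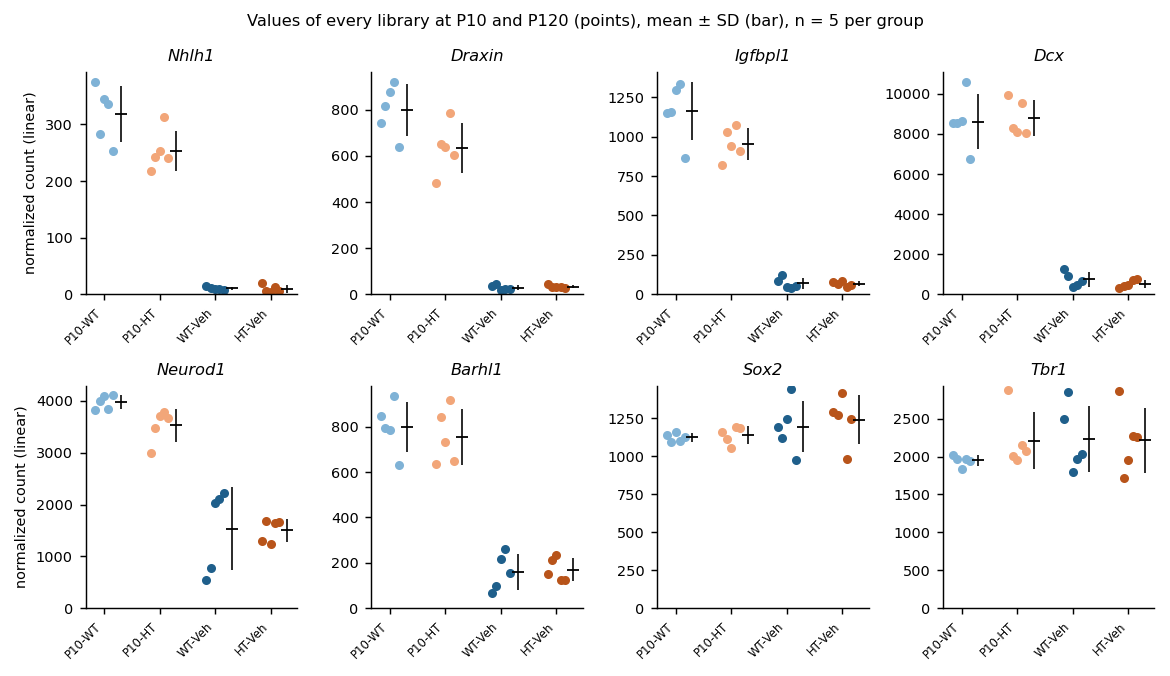
Normalized counts (linear axes from 0) of 8 members in each of the 20 libraries of P10-WT, P10-HT, WT-Veh and HT-Veh, with the group mean and SD as bars. Nhlh1, Draxin, Igfbpl1 and Dcx lie near the axis at day 120, Neurod1 and Barhl1 keep part of their level with a wide spread in WT-Veh, and the ages overlap for Sox2 and Tbr1.

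Of the 4 stem and progenitor genes, Pax6 and Nes fell and Sox2 and Hes5 were not called. Pax6, a factor of radial glia and cerebellar granule cells, had 1518, 1499.7, 1432, 1546 and 1458 in P10-WT and 396, 433, 875, 697 and 696 in WT-Veh, without overlap (-1.33 ± 0.18, adjusted p = 3.98e-05). Its other means were 1387 ± 25.5 (P10-HT), 665 ± 132 (HT-Veh), 603 ± 258 (WT-Flx) and 571 ± 167 (HT-Flx). Nes, the intermediate filament of neural stem cells and of growing vessels, went from 822 ± 58.5 to 453 ± 84.3 (-0.87 ± 0.12, adjusted p = 3.14e-05).

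Sox2 had 1143, 1095, 1159.7, 1097 and 1124 in P10-WT and 1193, 1118, 1247, 1440.2 and 979 in WT-Veh, and the ranges overlapped. Its difference was 0.078 ± 0.090 in wild type (adjusted p = 0.482) and 0.11 ± 0.11 in Arid1b+/- (adjusted p = 0.417), and with equal library totals the estimates were -0.028 and -0.052. Its other means were 1141 ± 59.5 (P10-HT), 1241 ± 159 (HT-Veh), 1110.0 ± 148 (WT-Flx) and 1205 ± 181 (HT-Flx). Hes5, the Notch effector that keeps progenitors undifferentiated, had 512, 554, 466, 488 and 503 in P10-WT and 535, 579, 393, 368 and 213 in WT-Veh, with 2 adult libraries in or above the range of the pups and 3 below it (-0.35 ± 0.21, adjusted p = 0.172). In HT-Veh it ran from 276 to 959.7. The means were 477 ± 70.3 (P10-HT), 522 ± 279 (HT-Veh), 340.2 ± 106 (WT-Flx) and 566 ± 174 (HT-Flx), and the HT-Veh mean was above that of P10-HT while the log2 estimate was -0.012 ± 0.28, so the mean and the estimate differ in sign. With GC content and length corrected, Hes5 was called lower in both genotypes (-0.61 and -0.48). Of the Hes5 exon bases, 31.8% overlap a gene on the opposite strand.

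The cortical identity factors had the smallest median difference of the roles in wild type (-0.25), and in Arid1b+/- (-0.42) the stem and progenitor genes had a smaller one (-0.37). Tbr1, a factor of deep layer neurons, had 2025, 1969, 1835, 1970.3 and 1945 in P10-WT and 2498, 2846, 1789.6, 1968 and 2037 in WT-Veh, which overlapped (0.17 ± 0.11, adjusted p = 0.194). In Arid1b+/- the Tbr1 means were 2209.6 ± 378 and 2212 ± 432 (adjusted p = 0.982), with 2351 ± 569 (WT-Flx) and 2319 ± 370.0 (HT-Flx). Bcl11b, a factor of subcerebral projection neurons and striatal neurons, had 2918 ± 165 and 2756 ± 509 in wild type (-0.10 ± 0.11, adjusted p = 0.457). It was called lower in Arid1b+/- (3217 ± 123 to 2688 ± 242, -0.26 ± 0.10, adjusted p = 0.0362), a call lost without HT-Veh replicate 2 (-0.25) or without any 1 of the 5 P10-HT libraries (-0.28 to -0.25), and had 3145 ± 709.9 (WT-Flx) and 2779.7 ± 350.2 (HT-Flx).

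The other pair of cortical factors fell. Bcl11a, a zinc finger factor of cortical neurons, went from 3471 ± 292 to 2404 ± 399 (-0.54 ± 0.10, adjusted p = 0.000663), with 3522 ± 266 (P10-HT), 2375 ± 366 (HT-Veh), 2301 ± 438 (WT-Flx) and 2671 ± 336 (HT-Flx). Fezf2, a selector of subcerebral projection neurons, went from 769.6 ± 89.1 to 591 ± 132 (-0.40 ± 0.14, adjusted p = 0.0274), with 821 ± 89.5 (P10-HT), 548 ± 105 (HT-Veh), 575 ± 157 (WT-Flx) and 538 ± 75.7 (HT-Flx). The Fezf2 call in wild type was lost without any 1 of P10-WT replicates 1 to 4 or WT-Veh replicates 3 and 4 (-0.39 to -0.31). The fall of Bcl11a in Arid1b+/- (-0.58) was -0.25 and not called after the GC and length correction.

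The DLX homeobox factors specify GABAergic interneurons, and 3 of 4 fell in wild type and 4 of 4 in Arid1b+/-. Dlx1 had 1803, 1591, 1649, 1700.3 and 1488 in P10-WT and 1119.8, 909, 549, 491 and 588 in WT-Veh, without overlap (-1.24 ± 0.19, adjusted p = 0.000107). Its other means were 1781 ± 169 (P10-HT), 671 ± 99.1 (HT-Veh), 867 ± 318 (WT-Flx) and 660.1 ± 157 (HT-Flx). Dlx2 and Dlx5 had differences of -1.06 and -0.54 (adjusted p = 0.0481 for Dlx5). Dlx6 had 169.5, 177, 151, 141 and 191 in P10-WT and 215, 235, 95.5, 90.7 and 72.5 in WT-Veh, so that 2 adult libraries were above all of the pups and 3 were below (-0.38 ± 0.29, adjusted p = 0.279). In Arid1b+/- Dlx6 was called (-0.39 ± 0.15, adjusted p = 0.0413), a call lost without any 1 of P10-HT replicates 1, 2 and 5 or HT-Veh replicates 1 and 5 (-0.39 to -0.30), and the other means were 187 ± 32.7 (P10-HT), 141 ± 15.4 (HT-Veh), 183 ± 80.1 (WT-Flx) and 116 ± 31.0 (HT-Flx).

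Atoh1 and Barhl1 mark the cerebellar granule lineage, whose precursors still divide in the external granule layer of young pups. Atoh1, the proneural factor of granule precursors, had 49.6, 32.8, 27.6, 43.2 and 15.5 in P10-WT and 22.4, 34.2, 24.7, 35.2 and 28.9 in P10-HT. It is listed at 0 in all adult libraries but HT-Veh replicate 3, which had 2.15, and no fold is given against 0. Barhl1, a factor of migrating and mature granule neurons, had 849, 793, 784, 936 and 633 in P10-WT and 67.0, 98.2, 216, 260.0 and 154 in WT-Veh, with no overlap (-2.47 ± 0.30, adjusted p = 1.35e-05, and -2.18 ± 0.19, adjusted p = 1.69e-06 in Arid1b+/-). Its other means were 755 ± 123 (P10-HT), 169 ± 50.6 (HT-Veh), 110.2 ± 82.3 (WT-Flx) and 219.6 ± 69.0 (HT-Flx). Markers of dividing cells moved with age as well: 8 of 9 were called lower in wild type and 6 of 9 in Arid1b+/-, none of the 9 was at 0 throughout, and their sum ran from 4381 to 6213 in P10-WT and from 1702 to 2194 in WT-Veh. Choroid plexus markers were called higher in both genotypes (5 of 5, with sums of 11380 to 15582 in P10-WT and 22808 to 34026 in WT-Veh). Called lower were 5 of 6 endothelial and mural markers and 4 of 4 oligodendrocyte precursor markers in wild type (2 of 6 and 2 of 4 in Arid1b+/-), and oligodendrocyte markers were called higher for 3 of 7 in wild type and 5 of 7 in Arid1b+/-. The part of these cells in the differences of the members was not tested.

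Other genes of the same biology were taken from lists of names and not picked by value, and are read beside the 29.4% of all genes called lower in wild type and 25.3% in Arid1b+/-. Of 25 other immature neuron genes, 19 were called lower in wild type and 0 higher (median -0.80), and 18 and 0 in Arid1b+/-, with Mex3a, an RNA-binding protein (-2.68), and Nrep (-2.17) the most changed in wild type. Of 23 other progenitor genes tested, 9 were called lower and 3 higher in wild type (median -0.10), and 8 and 2 in Arid1b+/- (median -0.071). Fabp7, the fatty acid binding protein of radial glia, had -4.29 and Insm1, a factor of intermediate progenitors, -2.50. Sox9, which astrocytes keep, had 0.70 and was among the 3 called higher. Of 15 other cortical identity genes, 8 were called lower and 1 higher in wild type (median -0.47), among them Mef2c (-1.28) and Lhx6 (-0.90), and 10 and 1 in Arid1b+/-. Mature neuron markers had 1 of 13 called lower and 6 called higher in wild type.

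Within the adult groups, the members varied more from library to library than in the pups, and in WT-Veh some did so along with cerebellar markers. The median coefficient of variation of 35 members was 10.6% in P10-WT and 11.1% in P10-HT, against 22.4% in WT-Veh, 19.5% in HT-Veh, 23.9% in WT-Flx and 23.2% in HT-Flx. The 7 cerebellar markers summed to 10693 and 13608 in WT-Veh replicates 1 and 2 but to 28615, 34041 and 28167 in replicates 3, 4 and 5, while P10-WT ran from 20807 to 23654. Replicates 1 and 2 were below replicates 3 to 5 for 8 members (Neurod1, Stmn2, Eomes, Pax6, Nes, Cd24a, Nhlh2 and Barhl1) and above them for 16, beside 16.2% and 14.9% of tested genes. The 16 included all 4 DLX factors, all 4 cortical identity factors, Dcx, Hes5, Igfbpl1 and Draxin. Neurod1 in the first 2 libraries averaged 31.5% of its mean in the other 3, Eomes 37.2% and Barhl1 39.3%, while Dlx6 averaged 261%, Igfbpl1 223% and Dcx 218%.

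WT-Flx held the same kind of spread, with cerebellar sums of 7766 and 9614 in replicates 2 and 5. Neurod1 in WT-Flx was 1332, 387, 1755, 2572 and 377, so that the same 2 libraries were the lowest. HT-Flx replicate 5 had the highest cerebellar sum (38708) and the highest Neurod1 (1994) of its group. In HT-Veh the 2 did not go together, since replicate 3 had the highest sum (30303) and the lowest Neurod1 (1244). Without WT-Veh replicates 1 and 2, an alternative chosen after seeing the data, 34 of 36 members were called lower with age in wild type. Those not called were Sox2 and Tbr1, and over all tested genes 5443 were called lower and 5243 higher. Dlx6, Hes5 and Bcl11b were then called (-0.94, -0.68 and -0.28), and the Tbr1 estimate was -0.014. Dlx6, Hes5, Bcl11b and Tbr1 were higher in the libraries left out than in the rest of WT-Veh. Their lower estimates without those libraries were thus fixed beforehand. For the 8 members lower in the libraries left out, smaller falls were fixed likewise. Neurod1 went from -1.58 to -0.91, Eomes from -1.07 to -0.52, Barhl1 from -2.47 to -1.94 and Pax6 from -1.33 to -0.99. The part of the regional makeup in the adult levels was not tested.

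**Figure D3:**
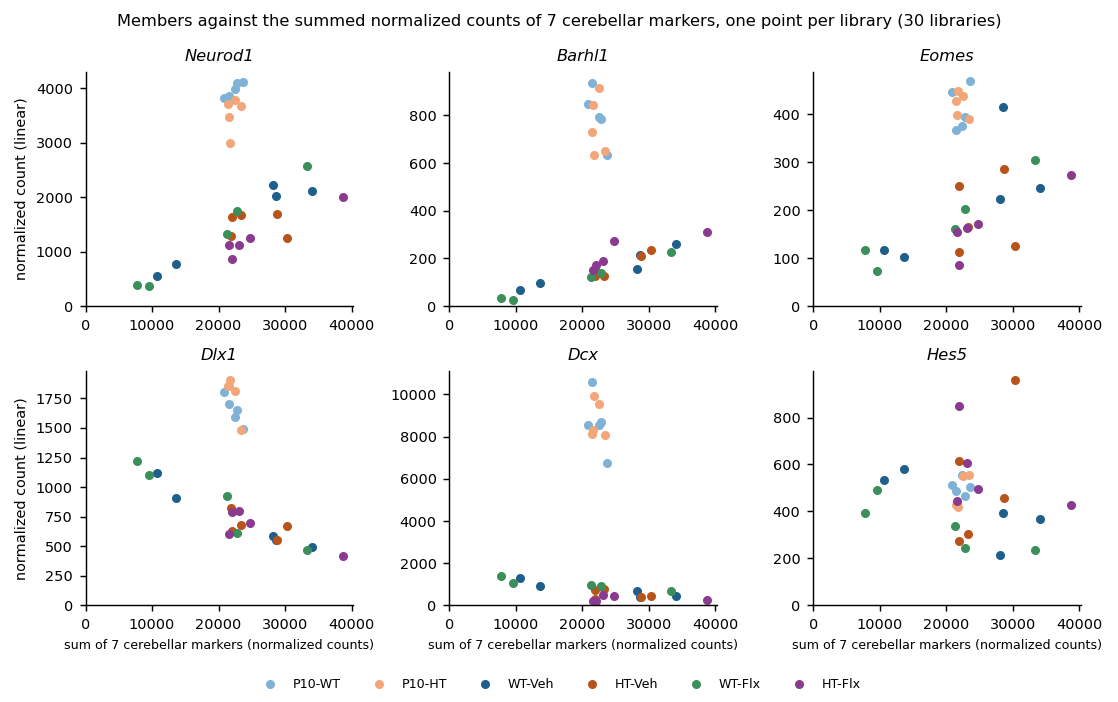
Normalized counts of 6 members (linear axes from 0) against the summed normalized counts of 7 cerebellar markers, one point per library for all 30 libraries, coloured by group. The 4 adult libraries with the lowest cerebellar sums (7766 to 13608) have the 4 lowest values of Neurod1 and Barhl1, and the P10-WT libraries lie between 20807 and 23654.

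At postnatal day 10, the comparison of Arid1b+/- with wild-type pups asked what the mutation changes early in life. Of the 36 members 0 were called, beside 0.0224% of 17896 tested genes (4 genes, Arid1b among them at -0.55 ± 0.036, adjusted p = 1.52e-05 by limma). The median difference over the members was 0.014 (log2), and the estimates ran from -0.34 (Draxin) to 0.21 (Dlx2). By unadjusted p below 0.05 there were 6 members on the lower side and 1 on the higher side, beside 6.84% and 5.73% of tested genes. The 6 were Draxin (-0.34 ± 0.12), Nhlh1 (-0.32 ± 0.12), Igfbpl1 (-0.27 ± 0.11), Nes (-0.19 ± 0.069), Neurod1 (-0.18 ± 0.059) and Pax6 (-0.10 ± 0.039), and the 1 was Bcl11b (0.14 ± 0.046), with adjusted p from 0.315 to 0.350.

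Neurod1 had 2995, 3473, 3705, 3782 and 3677 in P10-HT, and every one of these libraries was below every P10-WT library (limma adjusted p = 0.317). For such a separation of 5 against 5 the exact two-sided permutation test gives 0.00794, the smallest p it can give. Nes was separated as well, with 748, 627, 775, 762 and 695 in P10-HT against 792, 792, 805, 793 and 926 in P10-WT. So was Pax6, with 1375, 1349, 1416, 1398 and 1396 in P10-HT. Draxin overlapped between the genotypes, with 482, 654, 638, 784 and 606 in P10-HT (exact permutation p = 0.0556). Bcl11b had 3368, 3076, 3112, 3234 and 3296 in P10-HT against 2969, 2868, 2965, 3118 and 2669 in P10-WT, which overlapped in part (exact permutation p = 0.0238). These members were named for their small limma p in the same libraries, so the permutation p-values are no separate evidence. The share of all genes separated in this way was not counted.

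By role, 3 of the 4 stem and progenitor genes had estimates below 0, all 4 DLX factors had estimates from 0.11 to 0.21 and all 4 cortical identity factors from 0.022 to 0.17, while the 10 cytoskeletal genes lay between -0.11 and 0.095. None of these passed the threshold. Other progenitor genes (23 tested), other immature neuron genes (25) and other cortical identity genes (15) had 0 called, with 4, 1 and 3 at an unadjusted p under 0.05. Markers of other cells moved beside them: at an unadjusted p under 0.05, 5 of 9 dividing cell, 5 of 5 erythroid, 4 of 5 choroid plexus and 3 of 6 endothelial and mural markers were lower in P10-HT. Of the erythroid markers 1 was called, Hbb-bs (-0.77, adjusted p = 0.014 by limma). Of the oligodendrocyte and of the microglia markers, 0 of 7 each were at an unadjusted p under 0.05. The sum of the dividing cell markers ran from 3886 to 5320 in P10-HT against 4381 to 6213 in P10-WT, and that of the erythroid markers from 5258 to 8444 against 10377 to 13112. The choroid plexus sum ran from 7073 to 12151 in P10-HT against 11380 to 15582, and the endothelial and mural sum from 10176 to 11078 against 11331 to 12219. Their part in the estimates of the members was not tested.

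**Figure D4:**
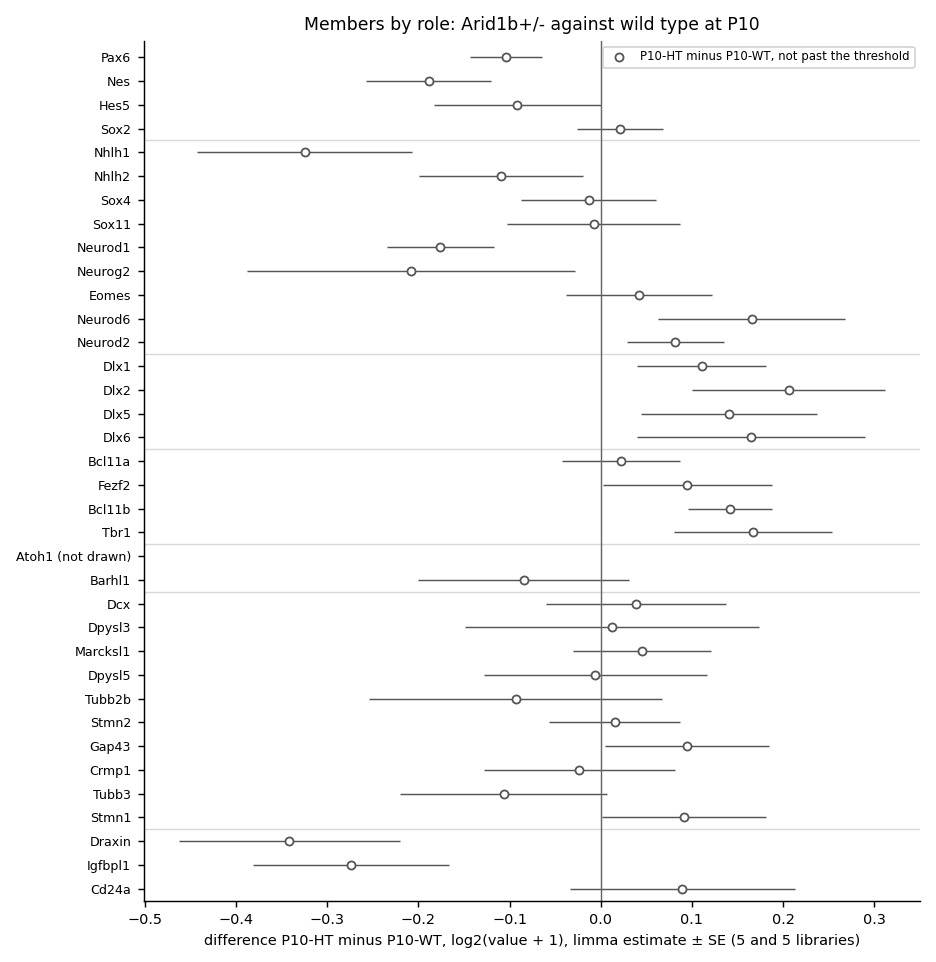
Difference between P10-HT and P10-WT for 35 members in log2(value + 1), as limma estimates with standard errors from 5 and 5 libraries, grouped by role. All points are open since 0 members passed the threshold, and the estimates lie between -0.34 (Draxin) and 0.21 (Dlx2).

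At day 120 under vehicle, HT-Veh and WT-Veh were compared over replicates 1, 3, 4 and 5 of each, which leaves out the libraries that go against their labels in Arid1b. Atoh1 did not pass the filter on low values, and 0 of the other 35 members were called, beside 0% of 17784 genes, with 1 at an unadjusted p under 0.05 beside 1.29% of genes. That member was Neurod6 (0.52 ± 0.23, limma adjusted p = 1.00), which in all 5 libraries had 1734, 809, 2324, 1125 and 1436 in HT-Veh. The WT-Veh values were 1512, 1558, 907, 1069 and 1036, and the groups overlapped. Its other means were 1971 ± 175 (P10-WT), 2232 ± 413 (P10-HT), 1382 ± 330.1 (WT-Flx) and 1753 ± 601 (HT-Flx). Draxin (0.44 ± 0.29) and Dlx2 (0.43 ± 0.28) came next by p, and Dlx2 had 321 ± 24.5 (P10-WT), 374 ± 60.6 (P10-HT), 164 ± 68.8 (WT-Veh), 178 ± 60.6 (HT-Veh), 176 ± 69.7 (WT-Flx) and 199 ± 74.3 (HT-Flx).

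Whether the genotype difference changed with age was tested directly over all 10 P10 libraries and replicates 1, 3, 4 and 5 of the vehicle groups. Of the members 0 were called, beside 0% of 17969 genes, with 1 at an unadjusted p under 0.05 beside 3.41% of genes. That member was Draxin (0.78 ± 0.26, adjusted p = 0.920 by limma, and 0.60 with the vehicle libraries numbered 2 included). Draxin averaged 633 in P10-HT and 799 in P10-WT, and in replicates 1 to 5 of the vehicle groups it had 43.0, 31.9, 30.6, 31.8 and 28.4 in HT-Veh against 35.8, 45.1, 18.3, 20.9 and 24.4 for WT-Veh. Igfbpl1 (0.54 ± 0.28, and 0.31 with those libraries) and Eomes (-0.59 ± 0.36) came next. Igfbpl1 averaged 1162 ± 184 (P10-WT) and 954 ± 99.5 (P10-HT) and had 78.7, 63.8, 86.3, 46.7 and 56.2 in replicates 1 to 5 of HT-Veh, where WT-Veh had its highest value in replicate 2, which this fit leaves out. The fluoxetine means of Igfbpl1 were 60.2 ± 21.9 (WT-Flx) and 86.3 ± 20.9 (HT-Flx).

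Early fluoxetine was compared with vehicle in each genotype at day 120. In Arid1b+/- mice 0 of 35 tested members were called, beside 0% of 17676 genes, and 3 were at an unadjusted p under 0.05 beside 23.1% of genes. They were Dcx (-0.68 ± 0.29), Tubb3 (0.36 ± 0.16) and Crmp1 (0.40 ± 0.18), each with an adjusted p of 0.215 by limma. In wild type 0 of 35 were called, beside 0% of 17865 genes (2 members and 1400 genes without WT-Veh replicate 1, and 0 members and 624 genes without WT-Veh replicate 5), and 4 were at an unadjusted p under 0.05 beside 25.2%. They were Marcksl1 (-0.34 ± 0.094, adjusted p = 0.0882), Neurod2 (-0.27 ± 0.085, adjusted p = 0.109), Tubb2b (-0.21 ± 0.081, adjusted p = 0.151) and Tubb3 (-0.20 ± 0.090, adjusted p = 0.197), all with estimates below 0.

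Marcksl1 had 2007, 2118, 1769.7, 1887 and 2129.6 in WT-Flx and 2189, 2834, 2498, 2884 and 2212 in WT-Veh. Every WT-Flx library was below every WT-Veh library. Marcksl1 was named for its small limma p in these same libraries, and the share of all genes so separated was not counted. The separation is thus no separate evidence. The other Marcksl1 means were 17642 ± 1722 (P10-WT), 18201 ± 1759 (P10-HT), 2868 ± 1085 (HT-Veh) and 3622 ± 839.8 (HT-Flx). The estimate of Neurod2 turned to 0.024 after the GC and length correction.

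The difference between the 2 drug effects was tested as an interaction over the 20 adult libraries, and 5 members were called. The drug effect in Arid1b+/- minus that in wild type was below 0 for Dcx and above 0 for Neurod2, Tubb3, Tubb2b and Crmp1, so 1 member was called lower and 4 higher, beside 11.5% and 15.8% of 17796 tested genes. The median over the 35 tested members was 0.14 (log2), beside 0.012 over all genes. These calls depended on the processing. With GC content and length corrected, 0 members and 0 genes were called, and likewise without the HT-Veh and WT-Veh libraries numbered 2. Without the 4 adult libraries of low cerebellar sum, an alternative chosen after seeing the data, 0 members and 0 genes were called as well. Leaving out any 1 of 8 libraries (WT-Veh replicates 2, 3 and 4, WT-Flx replicates 2 and 3, HT-Veh replicates 4 and 5, HT-Flx replicate 1) also gave 0 genes and 0 members, while without HT-Veh replicate 1 there were 7667 genes, 2 members lower and 7 higher. The estimates of the 5 members kept their sign without any 1 of the 20 libraries. Dcx ran from -1.45 to -1.01, Neurod2 from 0.35 to 0.45, Tubb3 from 0.47 to 0.65, Tubb2b from 0.45 to 0.66 and Crmp1 from 0.46 to 0.67. With equal library totals 2 members were called lower (Dcx at -1.41 and Stmn2 at -0.55) and 0 higher, while called genes moved from 2049 lower and 2803 higher to 3229 and 1501, with the median gene at -0.17.

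Dcx had 1285, 917, 379.9, 460.0 and 677 in WT-Veh, 989.7, 1378, 905, 692 and 1069 in WT-Flx, 320.5, 393, 458, 731 and 761 in HT-Veh and 222, 426, 229, 518 and 271 in HT-Flx. Every HT-Flx library was below every WT-Flx library, and each drug group overlapped its own vehicle group. The interaction was -1.22 ± 0.45, adjusted p = 0.0483, and -0.29 after the correction. Neurod2 had 2179, 2627, 2483, 2911 and 2235 in WT-Veh, 2095, 1982, 1977, 2240.4 and 1959.7 in WT-Flx, 2891, 2449, 2645, 2719 and 2236 in HT-Veh and 2849.9, 2840.3, 2642, 3041 and 2783 in HT-Flx. Its WT-Flx libraries were all below its HT-Flx libraries, and the interaction of 0.41 ± 0.13, adjusted p = 0.0356 turned to -0.25 after the correction.

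Tubb3 had 13128, 13338, 13527, 14154 and 15274 in WT-Flx, 22566, 17053, 20983, 13756 and 14062 in HT-Veh and 25919, 21854, 22319, 20894 and 20675 in HT-Flx. The HT-Veh libraries spread from the level of WT-Flx to that of HT-Flx, and the interaction was 0.56 ± 0.18, adjusted p = 0.0365, and -0.026 after the correction. Tubb2b had 32596 ± 7972 (P10-WT), 30292 ± 5902 (P10-HT), 6288 ± 639 (WT-Veh), 7174 ± 1798 (HT-Veh), 5439 ± 393 (WT-Flx) and 8927 ± 1320.3 (HT-Flx) (0.54 ± 0.20, adjusted p = 0.0454, and 0.34 after the correction). Crmp1 had 21255 ± 3578 (P10-WT), 20765 ± 2243 (P10-HT), 7601 ± 983 (WT-Veh), 8529 ± 2249 (HT-Veh), 6737 ± 457 (WT-Flx) and 10996 ± 1495 (HT-Flx) (0.56 ± 0.21, adjusted p = 0.0478, and 0.16 after the correction). For all 5 called members the ranges of WT-Flx and HT-Flx did not overlap, while each drug group overlapped its vehicle group. The 5 were chosen by the interaction in these same libraries, and the share of all genes so separated was not counted. The separation is thus no further evidence for these members.

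GC content moved with these results. The mean deviation of the tenth of genes highest in GC (58.0% or more) minus that of the tenth lowest (42.0% or less) ran from 0.565 to 1.32 (log2) in HT-Flx and from -0.817 to -0.622 in WT-Flx. It ran from -0.783 to 0.841 in HT-Veh and from -0.528 to 0.460 in WT-Veh. Of the members below 50% GC, 7 of 11 had an interaction below 0, and of those at 50% or more, 20 of 24 had one above 0. Over the 35 members the interaction had a Pearson r of 0.565 with GC content and of -0.430 after the correction, a description over members that share the same libraries. Dcx had the lowest GC content of the members, 41.6%. The forebrain markers, 6 genes, summed to 54244 to 75300 in HT-Flx replicates 1 to 4, to 31910 in HT-Flx replicate 5, and to 26266 to 45620 in WT-Flx. Among the 25 other immature neuron genes, 1 was called lower (Elavl2, -0.97) and 6 higher (Stmn3 at 0.81 among them). The part of GC content and of region in the interaction beyond these values was not tested.

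**Figure D5:**
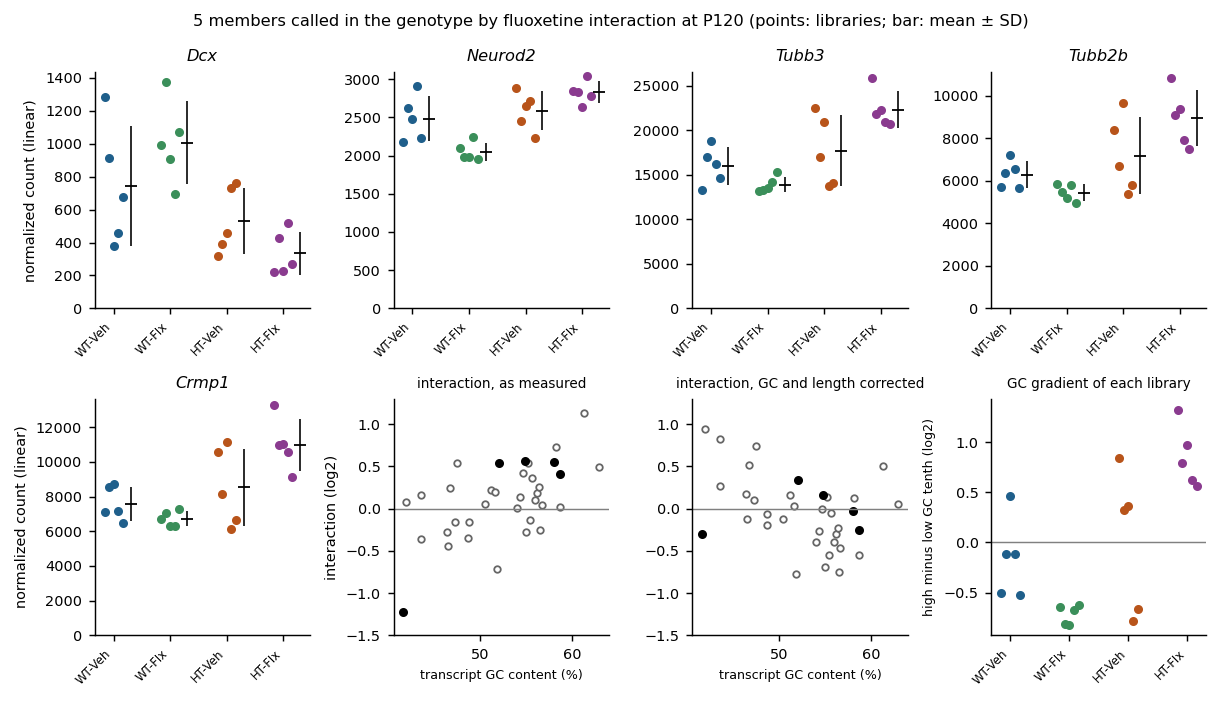
Normalized counts of the 5 members called in the interaction, in each of the 20 adult libraries with mean and SD (linear axes from 0), then the interaction (log2) of 35 members against the GC content of their transcripts before and after the correction, with filled points for the 5, and the GC gradient of each library. HT-Flx libraries have gradients from 0.565 to 1.32 and WT-Flx libraries from -0.817 to -0.622, and the 5 members lie between -0.29 and 0.34 after the correction.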

How the data were processed

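RNA from whole brains was sequenced in 30 libraries (6 groups of 5, by the labels) made with a kit that does not mark strand. The authors quantified reads with Salmon 1.1.0 on GRCm38 and normalized gene counts with DESeq2 1.30.1 (R 4.1.1, per the submitters' processing notes). The deposited values are signal: counts divided by size factors, not whole numbers, scaled jointly over the 30 libraries. Of values above 0, 10.2% lay within 0.05 of a whole multiple of the smallest value in their library, so reads could not be recovered, no count model was used and no counting interval is given. Gene IDs were named with GENCODE annotation (19722 of 19737).

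Differences were fitted with limma 3.58.1 (R 4.3.3) on log2(value + 1) with an intensity trend, over genes with a mean of at least 10 in the libraries of the fit, with Benjamini-Hochberg adjustment. On this scale a fold understates the change of low genes. Single genes were also compared with an exact two-sided permutation test over libraries, whose smallest p is 0.00794 for 5 against 5 and 0.0286 for 4 against 4. The fit was tested on data made with 200 genes changed by 1 (log2) and recovered 83.5% of them for age in wild type, 92% for genotype at day 10, 39.5% for genotype at day 120 and 53% for the interaction with fluoxetine. The made data gave each gene independent noise, without the GC and regional differences that run through the real libraries. Recovery in the real data may therefore differ. Nothing in the labels says that replicates came from separate litters, so p-values measure the spread between these samples. The GC and length correction subtracted each library's mean deviation in 100 bins (10 of GC content by 10 of transcript length).

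The members and lists were chosen with earlier results of these data known. Group values were given for the members highest and lowest in P10-WT in each role, those not called or with the largest or smallest fall with age, those removed by the filter and, in each genotype and drug comparison, the called members or the 3 with the smallest p. Other members named were chosen after their values were seen. Alternatives were other pseudocounts, filters, scalings and models, the GC and length correction, a replicate block and leaving out libraries.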

Additional observations from a re-analysis of the deposited data

Results flagged for a closer look

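Among 153 groups of 5 libraries examined for a library far from the rest, 5 were found, and chance gives about 1 in 20. Dlx1 was low in P10-HT replicate 5 (1484 normalized counts), Tbr1 was high in P10-HT replicate 1 (2873), and Draxin was high in HT-Veh replicate 1 (43.0). Cd24a was high in HT-Flx replicate 5 (511), the HT-Flx library with the highest cerebellar marker sum (38708). Atoh1 was above 0 in HT-Veh replicate 3 alone of the adult libraries (2.15), the HT-Veh library with the highest sum of dividing cell markers (3275).

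The effect of fluoxetine was called as different between the genotypes, by a test of the difference itself, for 5 members: Dcx (-1.22, log2), Neurod2 (0.41), Tubb3 (0.56), Tubb2b (0.54) and Crmp1 (0.56). That is 1 lower and 4 higher of 35 tested, beside 11.5% and 15.8% of all tested genes, a smaller share in each direction. None of the 5 was called after the GC and length correction. The same held without the HT-Veh and WT-Veh libraries numbered 2 and without the 4 libraries of low cerebellar sum. Leaving out some single libraries also removed every call.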

How the results depend on the processing

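Over the alternatives other than leaving out 1 library, 248 counts stayed within 1.5 times their main value and 22 did not, and of the values of single genes 590 kept their direction and side of the threshold, 30 lost and 6 gained a call and 10 changed sign. With library totals made equal Sox2 with age was -0.028 in wild type and -0.052 in Arid1b+/-. Tbr1 with age was -0.014 in wild type without WT-Veh replicates 1 and 2, and 0.081 in Arid1b+/- without HT-Veh replicate 2. After the GC and length correction, with or without a replicate block, Neurod2 under fluoxetine in wild type was 0.024, and the interactions of Neurod2 and Tubb3 were -0.25 and -0.026.

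In the interaction, 0 members were called lower without the filter on low values. With equal totals 2 were called lower and 0 higher. Without the intensity trend 0 were called lower and 2 higher. After the GC and length correction, after that correction with a replicate block, without the HT-Veh and WT-Veh libraries numbered 2, and without the 4 libraries of low cerebellar sum, 0 genes, 0 members lower and 0 members higher were called. The lowest correlation of same-numbered libraries was under 0.1 in each comparison of 2 groups. For fluoxetine in Arid1b+/- the same-numbered libraries had a mean correlation of 0.179 (-0.018 to 0.407), beside -0.044 for libraries of different numbers. In the other comparisons the same-numbered mean ran from -0.045 to 0.045. Whether equal replicate numbers pair the libraries was not tested. A replicate block gave 7 called genes for genotype at day 10 (7 with the correction), 1355 for fluoxetine in Arid1b+/- (2 with the correction) with 0 members, and 5542 genes with 2 members lower and 4 higher in the interaction.

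Leaving out 1 library at a time, all genes called with age ranged from 9594 to 10707 in wild type (members lower 29 to 31, higher 0 to 1) and from 8128 to 10177 in Arid1b+/- (29 to 33, and 0). With age in Arid1b+/- Hes5 ranged from -0.27 to 0.18 and Tbr1 from -0.10 to 0.094. Genes called ranged from 3 to 8 for genotype at day 10, and from 0 to 1 for genotype at day 120, fluoxetine in Arid1b+/- and age by genotype, with 0 members in each. Fluoxetine in wild type ranged from 0 to 1400 genes and 0 to 2 members lower, the highest without WT-Veh replicate 1. The interaction ranged from 0 genes (8 of 20 libraries, HT-Flx replicate 1 among them) to 7667 without HT-Veh replicate 1, with 0 to 2 members lower and 0 to 7 higher. The causes were not tested. Unknown read depth and 5 libraries a group limit what small differences can be detected.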
